A study of Mus musculus with 13 samples.

Results

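Fatty acids reach a cell through membrane proteins such as CD36 and the fatty acid transport proteins of the Slc27 family, are trapped inside as acyl-CoA by long-chain acyl-CoA synthetases such as Acsl1, and are carried through the cytoplasm by the small fatty acid binding proteins (FABPs). PPARG, the nuclear receptor of fat cell differentiation, activates many of these genes in adipocytes. In the mammary gland the same machinery serves the fat cells of the stroma and the secretory epithelium, which takes up fatty acids for milk fat. The genes described here are a set chosen by name: 3 binding proteins (Fabp3, Fabp4 and Fabp5), 4 genes of uptake (Cd36, Slc27a1, Slc27a3 and Slc27a4), the synthetase Acsl1, the regulator Pparg and Rbp4, the plasma carrier of retinol that adipocytes also secrete. All 10 of them were among the 15213 genes listed in the table.

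The RNA-seq libraries came from 10 mammary tumors that arose in 6 females of genotype MMTV-tTA TetO-Tsg101 and from the normal glands of 3 wild-type FVB mice. In the double transgenic mice a tetracycline-controlled transactivator under the mouse mammary tumor virus promoter, which is active mainly in the mammary epithelium, drives a TetO responder with wild-type Tsg101, a gene of endosomal sorting. The transgenic mice had the FVB/N background, and the glands carried neither transgene. Single tumors came from 3 of the 6 females, whereas tumors 2 and 3, tumors 5 and 6, and tumors 8, 9 and 10 each shared a mouse. The labels give neither the age of the females nor the reproductive stage of the glands. They name UNMC and Novogene as sequencing sites without assigning libraries to them, so no batch could be tested.

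Levels are in normalized cpm, reads scaled by an effective size of each library. Tumor libraries held 6176269 to 16835397 reads and gland libraries 11672487 to 23889042, and the ribosomal RNA precursor Rn45s took between 0.296% and 27.4% of them, with the highest share in tumor 9. Both tissues expressed the epithelial markers Epcam, Cdh1 and Krt8, with a summed level of the 6 markers between 1655 and 2318 in the tumors and between 951 and 2174 in the glands. The milk protein genes Csn1s1, Csn2 and Wap were abundant in every gland, where the sum of the 9 milk secretory markers was between 167096 and 306458. The 8 lymphocyte markers summed to 463, 23.0 and 409 in the 3 glands and to 9.34 to 119 in the tumors, so that gland 2 stood apart from the other two, and 7 of 8 were significantly lower in tumors in a test of all listed genes; their part in the results was not tested. A gene was counted as significantly deregulated at an adjusted p below 0.05 (limma, Benjamini-Hochberg over 11795 genes) and a change of more than 2-fold. By this rule 1204 genes (10.2%) were higher and 825 (6.99%) lower in tumors (10.5% and 10.1% without the filter on low values). Other scalings moved this split, to 568 higher and 3461 lower when libraries were scaled to the epithelial markers, to 825 higher and 1262 lower when Krt7, the only significantly higher gene of these 6 markers (log2 fold change 3.32), was left out of that scaling, and to 1886 higher and 513 lower with plain cpm. Over all tested genes the median log2 fold change was 0.01 with the deposited scaling, -0.72 with the epithelial scaling, -0.22 with that scaling without Krt7 and 0.33 with plain cpm.

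Of the 10 genes, 7 were significantly lower in tumors (Fabp3, Fabp4, Cd36, Acsl1, Pparg, Rbp4 and Slc27a1), 1 was significantly higher (Fabp5), and 2 were not called (Slc27a3 and Slc27a4). Pparg did not pass the filter on low values, which 9 of the 10 passed, and comes from a repeat of this test on all listed genes, in which 10.1% of 15213 genes were lower and 10.5% higher. In 7 of the 10 genes every tumor was below every gland, an arrangement seen in 10.3% of all listed genes. The reverse arrangement, seen in 11.4% of listed genes, held for Slc27a3. Ordered by log2 fold change from the lowest of the 15213 genes, Fabp3 stood at rank 5, Fabp4 at rank 10, Cd36 at rank 20 and Pparg at rank 64.

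**Figure D1:**
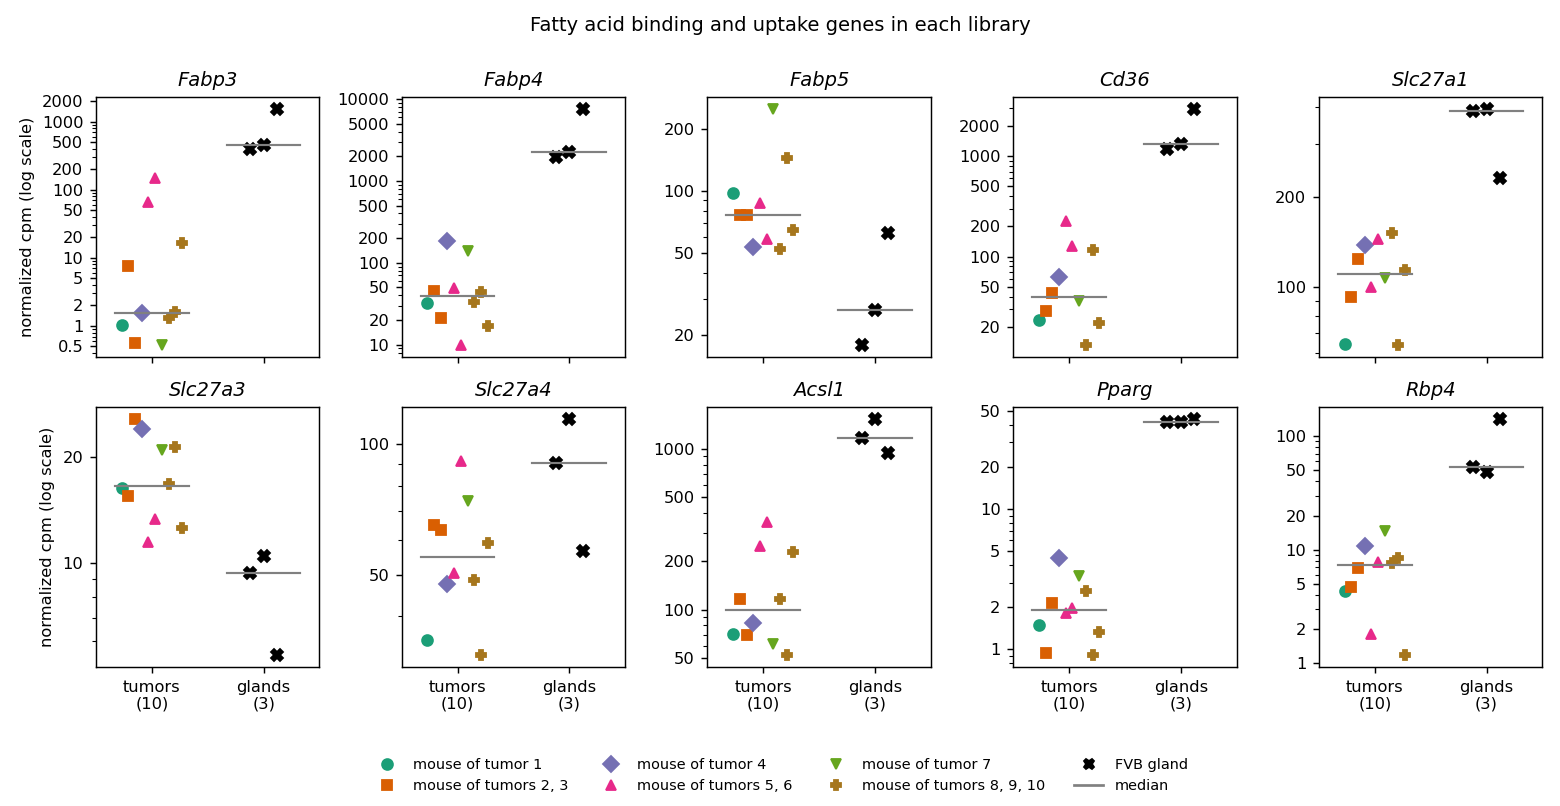
Level of each of the 10 genes in normalized cpm on log axes, with 1 point for each library, coloured by mouse for the tumors and black for the glands, and a grey line at the group median. All 10 tumors lie below all 3 glands for Fabp3, Fabp4, Cd36, Slc27a1, Acsl1, Pparg and Rbp4, all lie above them for Slc27a3, and the groups overlap for Fabp5 and Slc27a4.

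The binding proteins are close paralogs, so their coding sequences were compared before their levels. The first 120 bases of each coding sequence (GENCODE vM21, GRCm38) are shown because they let a reader see how far reads of the 3 genes can be told apart. Capitals mark runs of 8 or more bases that also occur in the coding sequence of at least 1 of the other two genes.
Fabp3: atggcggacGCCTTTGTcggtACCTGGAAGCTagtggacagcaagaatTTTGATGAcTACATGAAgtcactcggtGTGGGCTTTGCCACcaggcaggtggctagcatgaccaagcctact
Fabp4: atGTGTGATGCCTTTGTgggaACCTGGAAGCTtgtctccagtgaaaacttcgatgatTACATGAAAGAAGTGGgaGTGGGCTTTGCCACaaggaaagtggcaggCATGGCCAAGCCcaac
Fabp5: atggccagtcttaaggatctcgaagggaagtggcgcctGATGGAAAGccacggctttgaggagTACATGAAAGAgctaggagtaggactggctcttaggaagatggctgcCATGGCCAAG
The whole coding sequences are 402, 399 and 408 bases long and were 64.5% identical between Fabp3 and Fabp4, 59.6% between Fabp4 and Fabp5 and 56.5% between Fabp3 and Fabp5. The longest run shared by any pair of the transcripts was 14 bases, for Fabp3 and Fabp4. Fabp4 (chr3:10204342-10208616, minus strand) and Fabp5 (chr3:10012585-10016610, plus strand) lie near each other, and Fabp3 is on another chromosome (chr4:130308738-130315463, plus strand; all GRCm38.p6). Fabp3 shares 81 exon bases with Zcchc17 on the opposite strand, 9.84% of its exon length, and whether counting used strand is not given in the sources used here.

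Fabp4, the binding protein of adipocytes and also of some endothelial cells and macrophages, was at 1970, 2221 and 7546 normalized cpm in the 3 glands. In the tumors it ranged from 9.91 in tumor 6 to 187 in tumor 4, with a median of 38.9. The groups were far apart, and the gland mean of 3912 ± 3149 (SD, n = 3) was 67.5 times the tumor mean of 57.9 ± 58.1 (SD, n = 10). Fabp4 was lower in 10 of 10 tumors, with a log2 fold change of -6.28 ± 0.71 (SE; limma, adjusted p = 1.47e-05). Gland 3 was the highest library, and without it the log2 fold change was -5.67 (adjusted p = 0.000151) and the ratio of means 36.2. In bulk tissue, fewer cells of a type and less RNA per cell cannot be told apart, here or in the results that follow.

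Adipocyte genes moved in the same direction as Fabp4. The summed level of the 9 adipocyte markers was 59.6 to 342 normalized cpm in tumors, against 2318 to 4032 in glands. Without the filter 9 of 9 were significantly lower, and 3 of 3 among those past it. Their log2 fold changes ran from -6.68 for Adipoq, the adipokine adiponectin, to -2.78 for Pnpla2, the adipose triglyceride lipase, with a median of -5.20, so that the change of Fabp4 lay inside their range. The lipid droplet protein gene Plin1 was listed at 0 in at least 1 tumor and reached 11.4 in the highest, against 148 to 167 in the glands. Endothelial markers were lower too, in 9 of 10 genes, and their sum was between 95.3 and 177 in the tumors and between 408 and 783 in the glands. The part of either cell type in the change of Fabp4 was not tested.

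Fabp3, the binding protein of heart and skeletal muscle that the lactating mammary epithelium also makes, was far lower in tumors as well. It was at 401, 459 and 1538 normalized cpm in the glands and between 0.524 and 148 in the tumors, with a median of 1.57. Only the tumors of 1 mouse, tumors 5 and 6, exceeded 20, at 66.1 and 148. The log2 fold change was -6.69 ± 1.27 (SE; limma, adjusted p = 0.00114), with 10 of 10 tumors below all glands. Without gland 3 it was -6.08 (adjusted p = 0.00765). This was the lowest log2 fold change of the 10 genes, but by group means Fabp3 was 32.7 times higher in the glands (74.4 times without tumor 6, 17.6 times without gland 3), and with edgeR its log2 fold change was -5.09 against -6.09 for Fabp4. The lowest tumor value rested on 5 reads, so that the 281-fold range among the tumors is imprecise at its lower end.

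Genes of milk secretion were also lower, in 9 of 9 markers, with a median log2 fold change of -3.51 and a sum between 1468 and 77449 in the tumors. The tumor with the highest sum, tumor 6, also had the highest Fabp3. Brown adipocytes and muscle can contain Fabp3 as well. Ucp1, which defines brown fat, was at 63.1 ± 47.2 in the glands (SD, n = 3) and at 0.230 ± 0.343 in the tumors (SD, n = 10). Of the 7 brown adipocyte markers 3 were significantly lower without the filter (Ucp1, Cidea and Cox8b) and 1 was higher (Dio2, log2 fold change 2.92), and their sum was 46.1 to 108 in tumors and 144 to 470 in glands. The 6 skeletal muscle markers summed to 2069 in tumor 4 and 384 in tumor 10, against 3.72 to 24.9 in the glands, and Fabp3 in those tumors was at 1.55 and 16.3. The part of these cell types in the change of Fabp3 was not tested.

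Fabp5, the epidermal binding protein, went the other way. It was at 17.9, 26.5 and 62.4 normalized cpm in the glands and between 52.3 and 249 in the tumors, with a median of 76.2. The groups overlapped, since tumors 4, 6 and 8 were below gland 3, and 7 of 10 tumors were above all glands. The tumor mean of 96.0 ± 60.3 (SD, n = 10) was 2.70 times the gland mean of 35.6 ± 23.6 (SD, n = 3), and the log2 fold change was 1.42 ± 0.44 (SE; limma, adjusted p = 0.0248). This call was not firm: the adjusted p was 0.0597 with edgeR's quasi-likelihood test, 0.182 without gland 1 and 0.103 without gland 2, and with the epithelial scaling the log2 fold change was 0.68 (adjusted p = 0.322), or 1.18 (adjusted p = 0.159) with Krt7 left out of the scaling. Without gland 3 it was 1.91 (adjusted p = 0.00664), and the ratio of means was 4.32. Of the 9 squamous and basal epithelial markers, among them Krt5, Krt14 and Trp63, 8 passed the filter and 8 were significantly higher. Ivl, at 0 in every gland, passed it through the tumors alone. Without the filter 9 of 9 were significantly higher. The sum of the 9 markers was between 1114 and 5741 in the tumors and between 201 and 370 in the glands. Their part in the level of Fabp5 was not tested.

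Per kilobase of transcript, the make-up of the binding protein pool differed between the tissues. In the glands Fabp4 was between 80.9% and 81.3% of the summed level of the 3 genes, Fabp3 between 18.0% and 18.2% and Fabp5 between 0.611% and 0.876%. These shares were nearly the same in the 3 glands although the summed level ranged from 2703 to 10353 normalized cpm per kb. In the tumors the sum was between 92.1 and 410. There Fabp5 took between 20.5% and 75.9%, with a median of 59.6%, and was the largest component in 8 of 10 tumors. The exceptions were tumor 4, with 78.8% Fabp4, and tumor 6, with 71.8% Fabp3. The ratio of Fabp5 to Fabp4 was between 0.00751 and 0.0108 in the glands and between 0.260 and 5.37 in the tumors.

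**Figure D2:**
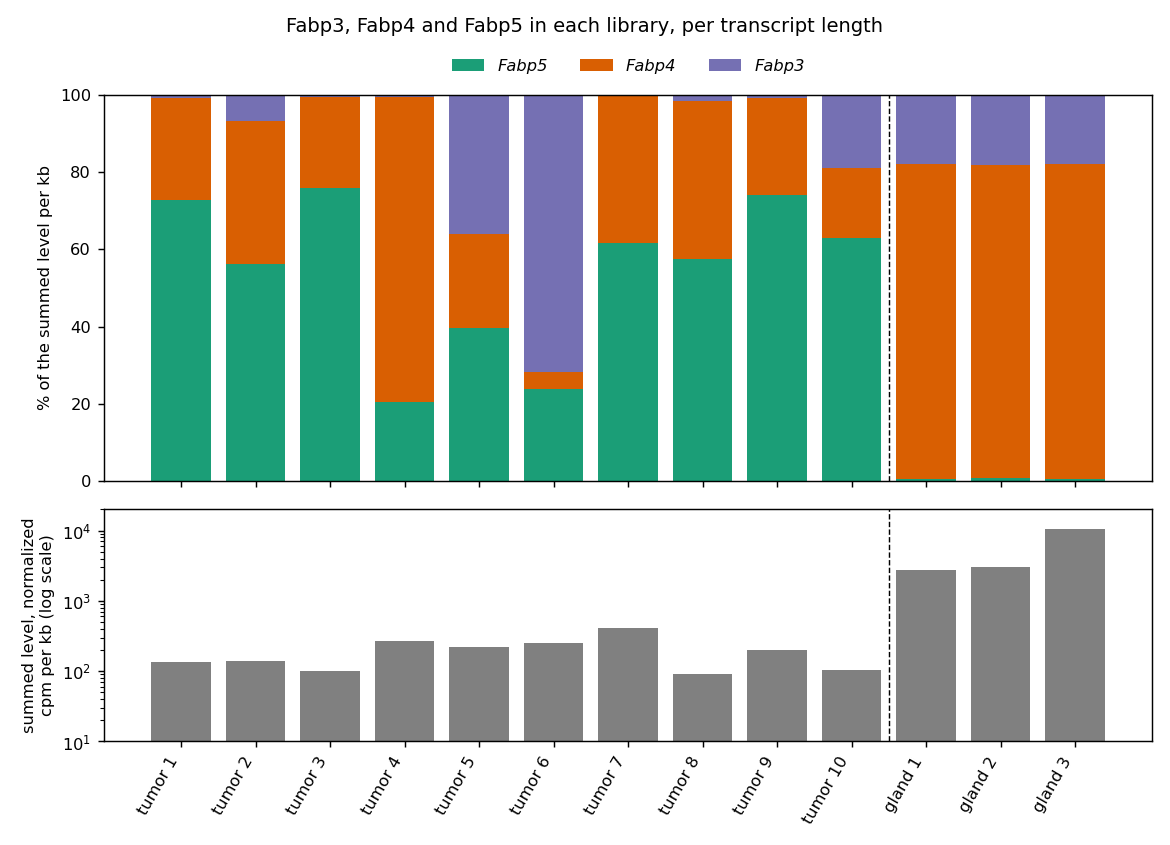
Upper panel, share of Fabp3, Fabp4 and Fabp5 in their summed level per kb of transcript in each library (stacked bars, %). Lower panel, that summed level in normalized cpm per kb on a log axis; the dashed line separates the 10 tumors from the 3 glands, which are near 81% Fabp4, whereas the tumors are mixed and have a lower sum.

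Among the genes of uptake, Cd36, the fatty acid translocase of adipocytes, endothelium, macrophages and secretory epithelium, changed the most. It was at 1180, 1310 and 2955 normalized cpm in the glands and between 13.2 and 228 in the tumors, with a median of 40.0. Every tumor was below every gland, by a log2 fold change of -5.07 ± 0.70 (SE; limma, adjusted p = 7.99e-05). The highest values were in tumors 5, 6 and 9, from 2 mice. Of the 10 macrophage markers 2 were significantly higher and 0 lower, and their sum was between 941 and 4569 in the tumors and between 519 and 1856 in the glands.

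Of the 3 members from the Slc27 family of transport proteins, only Slc27a1 was significantly deregulated. Slc27a1 was at 387, 394 and 231 normalized cpm in the glands and between 64.0 and 151 in the tumors, with a median of 111. The groups did not overlap, and the log2 fold change was -1.62 ± 0.27 (SE; limma, adjusted p = 0.000457). Slc27a3 was at 9.38, 10.5 and 5.49 in the glands and between 11.5 and 25.6 in the tumors, so that 10 of 10 tumors were above all glands. Its log2 fold change of 0.99 ± 0.25 (SE; limma, adjusted p = 0.00845) missed the 2-fold limit narrowly. It passed that limit with edgeR (1.05, adjusted p = 0.0125), and with the epithelial scaling it was 0.30 (adjusted p = 0.320). Slc27a4 was at 90.8, 115 and 56.7 in the glands and between 32.5 and 91.5 in the tumors, which overlapped. Its difference did not pass the test (log2 fold change -0.62 ± 0.29, SE; limma, adjusted p = 0.126), but with the epithelial scaling it did (-1.37, adjusted p = 0.000214; -0.86, adjusted p = 0.00958 and short of 2-fold, with Krt7 left out of the scaling). Without gland 3 the log2 fold change of Slc27a3 was 0.74 (adjusted p = 0.0503) and that of Slc27a4 was -0.90 (adjusted p = 0.0403), short of 2-fold. Per kilobase, Slc27a1 was the largest of the 3 in every library, with between 56.7% and 73.6% of their sum in the tumors and between 81.1% and 83.9% in the glands.

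Acsl1, which couples fatty acids to coenzyme A, was at 1167, 1540 and 946 normalized cpm in the glands. In the tumors it was between 52.3 and 352, with a median of 99.8. The log2 fold change was -3.38 ± 0.51 (SE; limma, adjusted p = 0.000185), and no tumor reached the glands. Tumors 5, 6 and 10 were the highest, at 250, 352 and 229. Of its exon bases, 1039 are shared with Gm45244 on the opposite strand, which is not among the listed genes.

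Pparg had the smallest spread between glands of the 10 genes, at 41.8, 42.1 and 44.1 normalized cpm. The tumors were between 0.910 and 4.51, with a median of 1.90, and the lowest value rested on 4 reads. The gland mean was 20.2 times the tumor mean, with a log2 fold change of -3.89 ± 0.29 (SE; limma without the filter, adjusted p = 2.24e-07). Rbp4 was at 53.4, 48.5 and 142 in the glands and between 1.19 and 14.8 in the tumors, with a median of 7.31. All tumors were again below all glands, with a log2 fold change of -3.43 ± 0.52 (SE; limma, adjusted p = 0.000181).

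PPARG binds DNA together with RXR at repeats of a core motif, AGGTCA, and the fall of Pparg alongside that of other members was the reason to look for these letters. Promoter windows of 300 bases (RefSeq, GRCm38.p6, from 250 bases before to 50 after a start) matched 8 of the 10 genes in 14 windows; Fabp4 and Fabp5 were not matched. The core motif, searched on both strands, was in 16.3% of all 32851 windows and in 3 of the 14, which belong to Cd36 and Pparg. The direct repeat AGGTCANAGGTCA, which contains the core motif, was in 13 of all windows and in none of the 14. The 3 windows are Cd36 (chr5:17835847-17836146, minus strand), the first Pparg start (chr6:115360894-115361193, plus strand) and another Pparg start (chr6:115362099-115362398, plus strand), with the core motif in capitals; in Cd36 it is read on the other strand.
Cd36: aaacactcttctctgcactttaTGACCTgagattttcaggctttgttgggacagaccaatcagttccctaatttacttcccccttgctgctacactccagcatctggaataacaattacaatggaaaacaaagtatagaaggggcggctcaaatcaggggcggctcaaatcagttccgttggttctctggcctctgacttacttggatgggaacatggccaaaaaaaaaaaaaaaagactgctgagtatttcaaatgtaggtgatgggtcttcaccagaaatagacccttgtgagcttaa
Pparg, first window: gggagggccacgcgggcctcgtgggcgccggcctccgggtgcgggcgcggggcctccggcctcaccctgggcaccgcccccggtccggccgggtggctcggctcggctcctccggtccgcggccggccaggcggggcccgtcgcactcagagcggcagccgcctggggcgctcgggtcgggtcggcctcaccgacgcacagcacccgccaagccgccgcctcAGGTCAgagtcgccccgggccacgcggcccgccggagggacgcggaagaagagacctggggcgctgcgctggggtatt
Pparg, other window: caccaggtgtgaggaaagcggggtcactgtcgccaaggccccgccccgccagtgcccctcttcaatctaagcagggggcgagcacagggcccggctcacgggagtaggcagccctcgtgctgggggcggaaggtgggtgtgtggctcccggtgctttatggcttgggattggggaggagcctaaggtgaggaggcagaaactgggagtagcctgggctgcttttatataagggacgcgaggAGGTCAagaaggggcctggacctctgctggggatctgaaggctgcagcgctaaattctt
A match is a description of the letters only, and the data hold no measurement of binding.

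Compared per kilobase of transcript, the order of the levels in the glands by median was Fabp4, Fabp3, Cd36, Acsl1, Slc27a1, Rbp4, Fabp5, Pparg, Slc27a4 and Slc27a3. Fabp4 was above Fabp3 without overlap, Acsl1 above Slc27a1, and Slc27a4 above Slc27a3, and the ranges of all other neighbours in this order overlapped. In the tumors the order was Fabp5, Fabp4, Slc27a1, Acsl1, Slc27a4, Cd36, Rbp4, Slc27a3, Fabp3 and Pparg, and the ranges of every pair of neighbours overlapped. Fabp5 rose from place 7 to place 1 and Fabp3 went from place 2 to place 9. The median of Fabp5 in the tumors was 77.2 normalized cpm per kb, and that of Fabp3 was 1.91.

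Where other genes of the same processes were significantly deregulated, they were lower. Of 9 partners of uptake, 5 were significantly lower and 0 higher, with a median log2 fold change of -1.42. Lpl, the lipase that frees fatty acids from lipoproteins, had a log2 fold change of -4.26 and was at 69.6 ± 37.2 in the tumors (SD, n = 10) and 1214 ± 206 in the glands (SD, n = 3). Cav1, the caveolar coat protein, changed by -2.88 and Gpihbp1, which holds LPL on capillary endothelium, by -2.59 on the log2 scale. Of the other FABP, Slc27 and Acsl genes 5 of 14 were listed and 3 passed the filter. Acsl4 was significantly lower (log2 fold change -1.13), as was Slc27a2 without the filter (-1.31), and 0 were higher. Acsl3, named after its value was seen, was above all glands in 10 of 10 tumors, but its log2 fold change of 0.85 (adjusted p = 0.00199) was short of 2-fold.

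Among the 9 PPAR and adipogenic factors, 5 passed the filter and 1 was significantly lower, Cebpa, a partner of PPARG in adipocytes (log2 fold change -1.74). Without the filter Rxrg and Ppara were lower as well, at -2.28 and -2.19, and 0 were higher. Of 12 PPARG target genes, 11 were significantly lower without the filter, and 6 of the 7 that passed it. The largest change was that of Pck1, an enzyme of glyceroneogenesis in fat, at -7.23, followed by Adipoq at -6.68 and Plin1 at -6.43. This list shares 4 genes with the adipocyte markers and 2 with the partners of uptake, and all of its genes are expressed in adipocytes. Fatty acid oxidation changed less. Of 13 listed genes 5 were significantly lower and 0 higher, with a median log2 fold change of -0.92, led by Hadha (-1.74), Acadl (-1.60) and Cpt2 (-1.60).

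**Figure D3:**
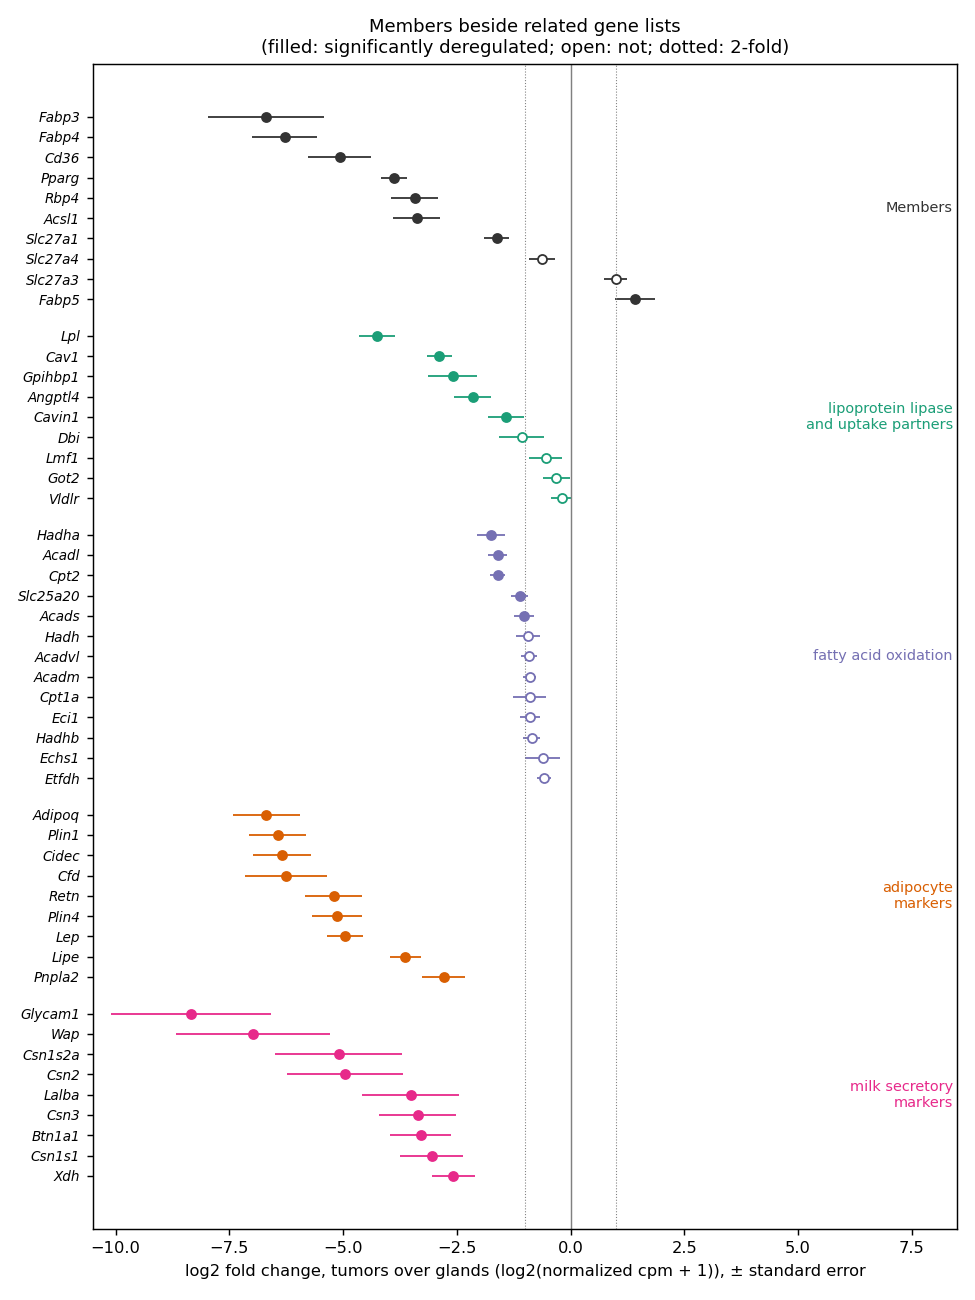
Log2 fold change of tumors over glands with its standard error for the 10 genes and for 4 related lists; filled points are significantly deregulated and open points are not, with genes below the filter taken from the test without it. The changes of Fabp3 and Fabp4 lie among those of the adipocyte and milk secretory markers, and those of the oxidation genes lie between -1.74 and -0.59.

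The 10 tumors also differed from each other, and the genes did so in separate patterns. Correlations of log2 levels with the mean of each of 9 marker lists (90 relations) are given as descriptions over 10 tumors of 6 mice; some tumors share a mouse, the values of a tumor come from 1 library, and depth differed between libraries. Fabp4 varied with the adipocyte markers, with a Pearson r of 0.89 and a Spearman rho of 0.85. Without tumors 4 and 7, the farthest from the median, r was 0.86, and over the means of the 6 mice it was 0.96. It varied with the endothelial markers too (r = 0.61, rho = 0.79; 0.76 without tumors 1 and 3, 0.66 over mouse means). Fabp3 instead varied with the milk secretory markers (r = 0.85, rho = 0.75; r = 0.88 without tumors 6 and 9), and its r with the adipocyte markers was -0.39. Acsl1 showed the same pattern as Fabp3 (r = 0.87 and rho = 0.90 with milk markers; 0.77 without tumors 6 and 9), and the r between Fabp3 and Acsl1 was 0.94. Slc27a3 ran opposite, with an r of -0.72 with the milk markers and -0.84 with Acsl1.

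Some relations of the other members depended on how they were measured. Pparg had an r of 0.73 with the adipocyte markers and 0.96 over mouse means, but rho was 0.31 and r was -0.45 without tumors 4 and 7. Rbp4 had an r of 0.52 with them and 0.83 over mouse means, but 0.06 without the same tumors, and Cd36 had an r of -0.01. Fabp5 had an r of 0.61 with the squamous and basal markers and 0.80 over mouse means, but rho was 0.05 and r was -0.11 without tumors 7 and 1. Others kept their sign on every measure. Fabp5 had an r of -0.56 with the epithelial markers (rho = -0.64, and r = -0.53 without tumors 9 and 3 and -0.56 over mouse means). Rbp4 had an r of -0.52 with the milk markers (rho = -0.56; -0.78 without tumors 6 and 9, -0.64 over mouse means). Slc27a4 had an r of 0.60 with the squamous and basal markers (rho = 0.67; 0.57 without tumors 7 and 1, 0.76 over mouse means), and Slc27a1 had an r of 0.68 with the epithelial markers (rho = 0.62; 0.50 without tumors 9 and 3, 0.49 over mouse means).

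**Figure D4:**
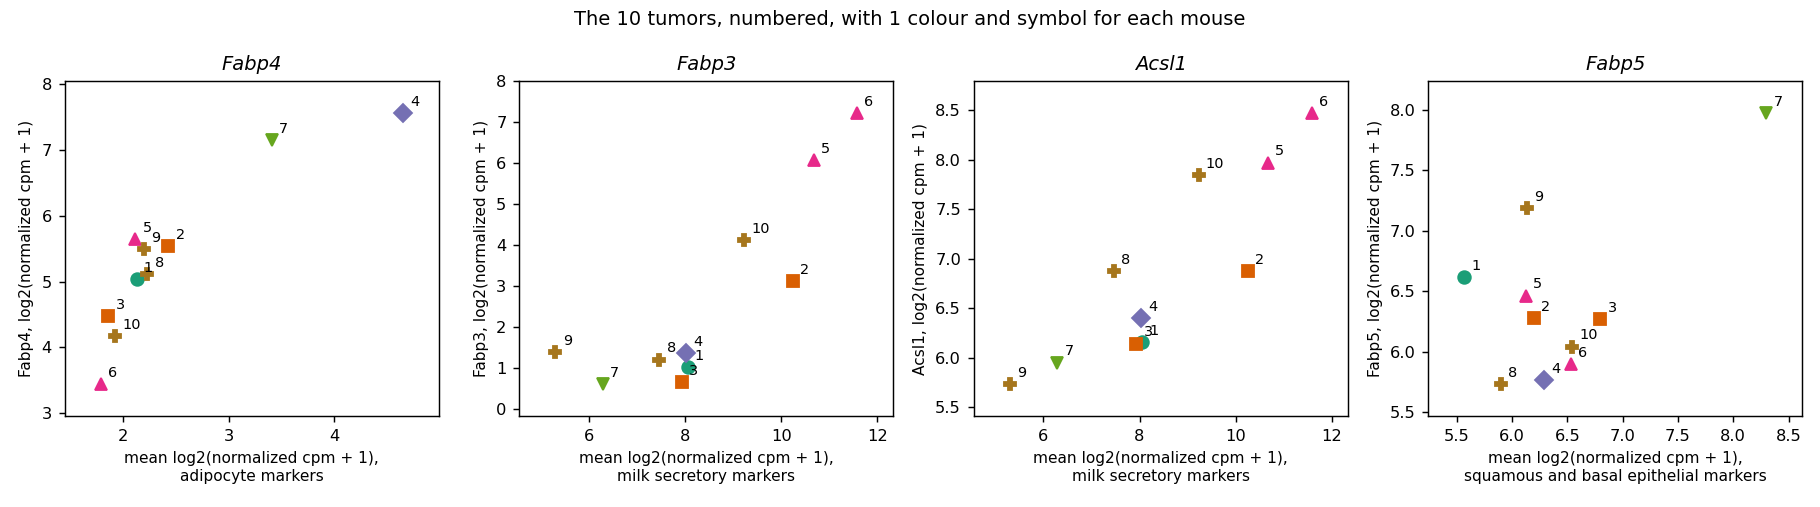
Level of Fabp4, Fabp3, Acsl1 and Fabp5 in the 10 numbered tumors against the mean level of a marker list, both as log2(normalized cpm + 1). Fabp4 rises with the adipocyte markers (r = 0.89), Fabp3 and Acsl1 with the milk secretory markers (r = 0.85 and 0.87), and tumor 7 is the highest in both Fabp5 and the squamous and basal markers.

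The genes whose log2 levels over the 10 tumors were most like those of the 3 binding proteins were also different. For Fabp4 they were Cfd, the adipokine adipsin (r = 0.97), Postn (0.89), Spon1 (0.89), Clec10a (0.86) and Col3a1 (0.85), of which Postn and Col3a1 encode proteins of the extracellular matrix. For Fabp3 they were Gldc (0.97), B4galt1, which encodes the galactosyltransferase of lactose synthase (0.95), Got1 (0.94), Tlnrd1 (0.94) and Acsl1 (0.94). For Fabp5 they were Fgfbp1 (0.95), Dmkn, a secreted protein of the epidermis (0.94), S100a14 (0.94), Arap2 (0.94) and Lgalsl (0.94). These are the highest values among 11795 genes and carry no test. They were not repeated without the highest tumor, which for Fabp5 was tumor 7, at 249 normalized cpm against 144 in the next.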

How the data were processed

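Paired-end reads of 10 tumors and 3 glands were aligned by the authors to mm10 (Rsubread), assigned to genes (featureCounts) and normalized (edgeR). The signal values deposited by the authors are reads divided by an effective library size; in every library 100% were whole multiples of the value of 1 read (tolerance 0.02 reads), and the reads recovered in this way were used for the count tests.

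Genes not above 5 normalized cpm in most libraries (3418) were left out. limma with a variance trend was fitted to log2(normalized cpm + 1) in the 13 libraries, without covariates. Fold changes on this scale understate those of low genes. p-values were two-sided and adjusted over all genes tested, and treat tumors of 1 mouse as separate samples. A count of 3 reads, the limit that a count of 0 allows at 95% confidence, was 0.128 to 0.683 normalized cpm; such limits cover counting error only. Levels per kb used the length of 1 principal GENCODE transcript. The tests were tested on simulated data. R 4.3.3, limma 3.58.1, edgeR 4.0.16 and DESeq2 1.42.0 were used. 15106 genes were matched by Entrez ID to GRCm38.p6.

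The members and all gene lists were chosen with earlier results of these data known. All members are named; of other lists, up to 3 significant rises and 3 falls and the first 3 cell type markers, and for each FABP the 5 genes of highest r. Part of the retinoid carrier list is not reported here. Pnpla2 and Rn45s were named after their values were seen. Alternatives changed the pseudocount, filter, scaling, test, mouse structure and libraries included.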

Additional observations from a re-analysis of the deposited data

Results flagged for a closer look

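In 3 of the 10 genes the highest tumor stood apart from the others by Dixon's criterion for 10 samples (a gap of over 0.466 of the range), which chance exceeds in about 1 in 20 groups of normally distributed values. On the log2 scale used for the tests, none of the 3 gaps passed this limit (0.174 for Fabp3, 0.351 for Fabp5 and 0.209 for Cd36). Fabp3 in tumor 6 was at 148 normalized cpm, the next tumor, of the same mouse, at 66.1, and the gap was 0.554 of the range. Fabp5 in tumor 7 was at 249 against 144 in the next tumor, a gap of 0.533. Cd36 in tumor 5 was at 228 against 127 in the next tumor, of the same mouse, a gap of 0.47.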

How the results depend on the processing

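The log2 fold changes of Fabp3, Fabp4, Cd36, Acsl1, Pparg and Rbp4 kept their direction and significance in 26 of 26 alternatives each, Slc27a1 in 25 and Fabp5 in 19. Slc27a3 and Slc27a4, not called, kept their direction in all and became significantly deregulated in 12 and 1; the adjusted p of Slc27a3 was at most 0.320. The number of significantly deregulated genes (2029) was 3141 without the filter, 4029 with the epithelial scaling and between 1661 and 2660 when 1 library was left out (2660 without gland 3). The number of the 10 genes significantly higher in tumors (1) was 2 with a pseudocount of 0.5, DESeq2, plain cpm, tumors of each mouse summed or the mouse of 3 tumors left out, where Slc27a3 joined Fabp5, and 0 with the epithelial scaling, also when Krt7 was left out of it (chosen after seeing the data). It was between 1 and 2 when 1 library was left out. Without gland 1 or gland 2, Slc27a3 was called in place of Fabp5.

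Tumors and glands share the numbers 1 to 3 in their labels but not an animal, and same-numbered libraries did not deviate together (r = -0.58, 0.04 and -0.66). With a replicate block on these 6 libraries 529 genes and 0 of the higher members were called, and Slc27a1 missed the threshold (adjusted p = 0.105); without the block, an alternative chosen after seeing the data, the same libraries gave 1320 and 0. No other member lost its call under the block but Fabp5 (adjusted p = 0.234), which was also lost without it (0.0976). Over the tumors, leaving out the 2 farthest turned the r with the adipocyte markers to -0.45 for Pparg and to -0.44 for Slc27a1. The depth limits Fabp3, Pparg and Rbp4 in tumors, where the lowest values rest on 5, 4 and 8 reads. Fabp3 had between 5 and 33 reads in tumors 1, 3, 4, 7, 8 and 9. Pparg had between 4 and 96 reads over all tumors. The correlations of both genes over the tumors carry this limit.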

Other observations

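Other genes of retinoid transport did not all change in the direction of Rbp4. Stra6, the membrane receptor for RBP4, was at 58.4 to 399 normalized cpm in tumors, against 0.731 to 3.56 in glands, with a log2 fold change of 5.14 ± 0.50 (SE; limma, adjusted p = 3.3e-06). All 10 tumors were above all glands. Crabp2, which carries retinoic acid inside cells, changed by 1.29 on the log2 scale (adjusted p = 0.00191), with 9 of 10 tumors above all glands. Rbp7, a cellular retinol binding protein, changed by -4.03 (adjusted p = 0.000232), with all tumors below all glands. Crabp1, which did not pass the filter, was below 4 in every library and changed by -1.17 (adjusted p = 0.0428 without the filter).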
